A study of Canis lupus familiaris with 10 samples.

Results

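Regulatory DNA that lies away from gene starts, such as enhancers, can be recognised by its accessibility to a transposase, which in ATAC-seq cuts and tags DNA that is not wrapped in nucleosomes. The regions described here are 760 stretches of the dog genome without a paired gene at which 17-71 cells gave more reads after treatment with the PRMT5 inhibitor C220 than without it, called opening distal regions below. They were chosen by their read levels: in a count table of regions in 17-71, the mean log2CPM (read counts scaled to library size, on a log2 scale) of the control libraries was subtracted from that of the C220 libraries, and regions with a difference of 0.8 or higher and no paired gene were kept. Only the first 1999 of the 48938 rows of that table were used here, in the order of its own test, and 1484 of these carried no paired gene; the 760 regions compare with 48847 regions merged from the 17-71 peak lists. The distance to the paired gene is at most 4976 bp in these rows, those inside a gene included, so distal means here only that no gene was paired within this reach. A distal region can still lie within a gene: chr27:13149227-13149974 lies between 2 rows paired with the gene ENSCAFG00000034714. Because the read levels chose the regions, higher C220 levels in 17-71 are a property of the choice and not a finding, and they were not tested.

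Accessibility was measured in 2 canine B-cell lymphoma cell lines grown in the same complete medium. The 17-71 cells, collected on day 4, are represented by b1, b2 and b3 (3 libraries without the inhibitor) and by b4 and b6 (2 libraries with 100 nM C220, which the labels name PR220). The CLBL-1 cells, collected on day 2, are represented by c2 and c3 (2 libraries without it) and by c4, c5 and c6 (3 libraries with 100 nM). The labels name lymph node as the source and give no genotype. Each line is a single cell line, the days differ between the lines, and the labels do not say whether libraries of a group came from separate cultures. The study describes its accessibility experiments as biological replicates, without saying this of each library used here. Whether the lines carry open chromatin at the genes that define B cells was not examined, since no annotation of CanFam3.1, the genome build of the files, was used apart from the genes paired in the count table. For the same reason no DNA sequence of the regions is shown.

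PRMT5 is the main enzyme that places symmetric dimethyl groups on arginine. Several of its marks on histones H3 and H4 are associated with silenced chromatin, and it also modifies splicing and transcription proteins. Distal accessible regions are on the whole more specific to a cell type than promoters, which are open in most cells.

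The peak lists held 44378 (b1), 33358 (b2), 30943 (b3), 22076 (b4) and 27646 (b6) peaks in 17-71, so both C220 libraries had shorter lists than every control library. In CLBL-1 they held 23822 (c2), 23318 (c3), 27026 (c4), 27247 (c5) and 23082 (c6) peaks. A peak is a stretch that the caller gave a −log10 p of at least 5, and each comes with a fold enrichment (fragment pileup over local background) and a −log10 p. The lists carry no read depth, so no depth is known for a value taken from them, and a missing call does not show that a region is closed. In libraries from many cells, a region open in more cells and one open more widely in each cell cannot be told apart.

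The difference between C220 and control ranged from 0.80 to 2.52 log2CPM over the 760 regions, with a median of 1.10 and quartiles of 0.97 and 1.29. The members nearest the threshold are chr32:38796622-38800022 (0.8010) and chr27:36806584-36807089 (0.8018). The nearest regions left out are chr27:16241110-16242739 (0.7999) and chr34:6157085-6158365 (0.7988). The median level over the 760 regions was 3.26 log2CPM in b4 and 3.11 in b6 with C220; the controls had 1.80 (b1), 2.29 (b2) and 2.13 (b3). The 5 libraries were thus in the order b1, b3, b2, b6, b4. At 749 of the 760 regions (98.6%) both C220 values exceeded all 3 control values, a share that the choice of regions largely fixes; over all rows used it was 48.3%, with changes in both directions among them. At the other 11 regions b4 (4 regions) or b6 (7 regions) was at or below a control library.

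**Figure D1:**
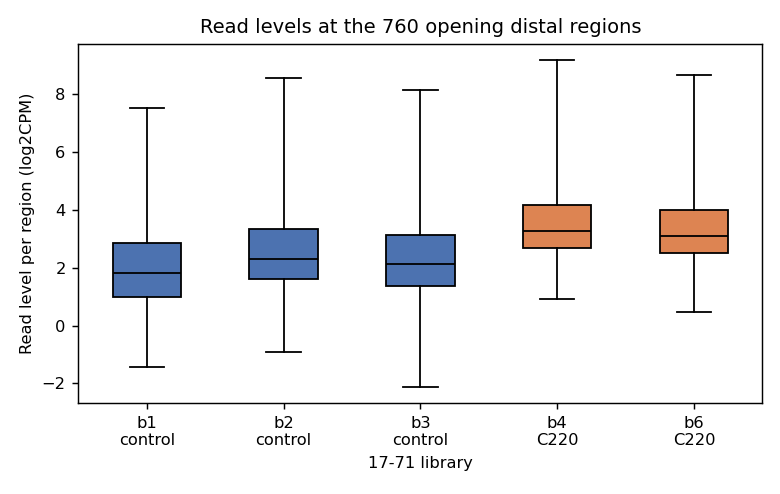
Read levels in log2CPM (vertical axis) at the 760 opening distal regions in each 17-71 library (horizontal axis; controls blue, C220 orange). Boxes span the quartiles with the median as a line, whiskers reach the lowest and highest region; the medians of b4 (3.26) and b6 (3.11) lie above the upper median of the controls (2.29 in b2), as the choice of regions requires.

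The libraries of a group were not level. Library b1 was the lowest of the 3 controls at 541 regions (71.2%), with a median of -0.47 log2CPM against the mean of b2 and b3. Library b4 was above b6 at 505 regions (66.4%), with a median difference of 0.20. Without b1, 553 of the 760 regions still reached a difference of 0.8, and without b4 570 did.

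The choice can tie the difference to the read level, since the rows used are the first by the table's own test. A region with few reads can need a larger difference to rank there, which was not tested. The values by level are therefore a description of the chosen regions. The 244 regions with a mean below 2 log2CPM over the 5 libraries had a median difference of 1.33 and a median width of 464 bp. For the 244 regions from 2 to 3 log2CPM these were 1.11 and 680 bp, for the 159 from 3 to 4 they were 0.97 and 991 bp, and for the 113 at 4 or above they were 0.91 and 1440 bp. These levels are not scaled by length, so a wider region has more reads at the same density.

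Of the 8 regions with the largest differences, 6 were between 322 and 426 bp wide and the other two 1079 and 1125 bp. The first, chr25:19857273-19857619, had -0.24, -0.92 and -2.12 log2CPM in b1, b2 and b3 and 2.38 and 0.48 in b4 and b6, a difference of 2.52. Both C220 values were above all controls, but b4 alone carried a call (fold enrichment 4.04, −log10 p 6.34). The second, chr5:64939767-64940845, had 0.40, 1.11 and 1.75 in the controls and 3.67 and 2.85 in b4 and b6. It was called in both C220 libraries (fold enrichment 3.65 in b4 and 3.31 in b6) and in no other library of either line. The next were chr17:26197925-26198284 (2.10), chr1:121312910-121313334 (2.08), chr25:26308380-26308701 (2.06), chr9:51776690-51777814 (1.98), chr11:73237762-73238138 (1.95) and chr9:21208895-21209320 (1.90). In all these 6 a peak was called in b4 and in no other library, with a −log10 p between 5.05 and 6.25.

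The peak lists were then searched at the 760 regions. With C220, b4 had a peak at 488 of them (64.2%) and b6 at 493 (64.9%). Without it, b1 had a peak at 234 (30.8%), b2 at 160 (21.1%) and b3 at 129 (17%). Over all 48847 merged regions the order was the reverse, with 90% in b1, 67.9% in b2 and 63.2% in b3 above 56.2% in b6 and 44.6% in b4. Both C220 libraries thus had the shorter lists but more calls at the chosen regions. Read levels of the same libraries chose these regions, so this order is largely a property of the choice. The part of list length in the counts was not tested. The peaks at opening distal regions were weak within their lists. Their median −log10 p was 5.88 in b4 and 6.08 in b6, against 8.11 and 8.49 over all merged regions called in these libraries, and the median peak stood at the 21.1 and 22.3 percentile of its list. A −log10 p of 10 or higher was reached at 83 of the 488 called regions in b4 (17%, against 36.1% of all merged regions called there) and 82 of the 493 in b6 (16.6% against 39.7%).

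**Figure D2:**
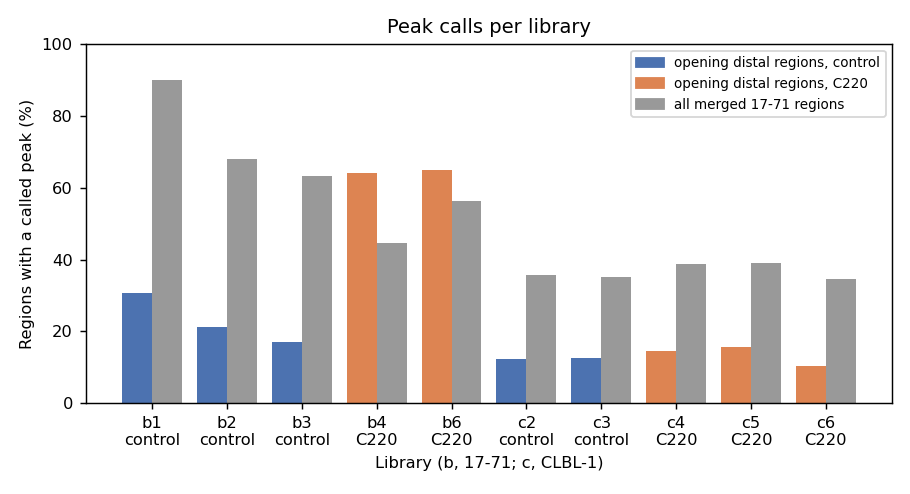
Share of regions with a called peak in percent (vertical axis) in each of the 10 libraries (horizontal axis). Coloured bars are the 760 opening distal regions (controls blue, C220 orange) and grey bars the 48847 merged 17-71 regions. The coloured bar is taller than the grey one in b4 and b6, which the choice of regions favours. It stays between 10.5% and 15.8% in CLBL-1.

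Calls were mostly present in 1 C220 library only. Among the 760 regions, 220 had a peak in b4 alone and 204 in b6 alone, together 424 regions (55.8%); over all merged regions 3.55% had either pattern. The chosen regions make up 27.9% of the merged regions called in b4 alone and 21.5% of those called in b6 alone. A peak in both C220 libraries and no control library was found at 53 regions (6.97%), against a background of 0.215% of merged regions (105). These shares rest on the same contrast as the choice, so nothing is read from them. The count of 53 was 87 without b1, and with a single C220 library it was 257 (without b4) or 273 (without b6).

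A call in 1 library did not mean reads in 1 library only. At the 220 regions called in b4 alone, the median level was 3.12 log2CPM in b4 and 2.36 in b6, against 1.14, 1.79 and 1.56 in b1, b2 and b3. At the 204 called in b6 alone it was 2.85 in b6 and 2.52 in b4, against 1.22, 1.79 and 1.54. By these medians the C220 library without a call lay between the calling library and the controls in both sets. The same levels chose the regions, so this order is largely fixed by the choice and is a description only.

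A control peak was present at 279 regions (36.7%), against 96.2% of merged regions. At 80 (10.5%) a peak was called in all 5 libraries of 17-71, as at 36.1% of merged regions. At 21 regions (2.76%) the calls came from control libraries alone, the opposite of the direction of the read levels, against 38% of merged regions. At 4 regions no library had a peak; 7 of the 760 are not identical to a region merged from the deposited lists.

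**Figure D3:**
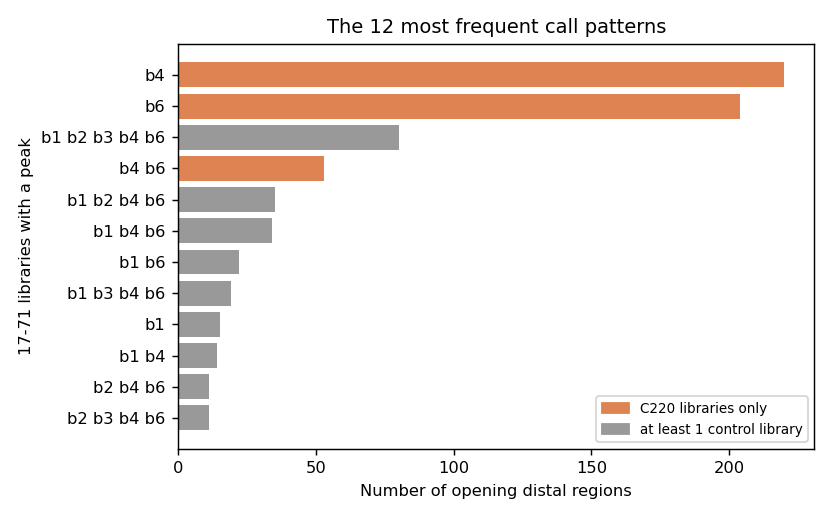
Number of opening distal regions (horizontal axis) for the 12 most frequent sets of 17-71 libraries with a peak (vertical axis). Orange bars hold C220 libraries only and grey bars at least 1 control library; the 2 longest bars are b4 alone (220) and b6 alone (204).

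Of the 53 regions called in both C220 libraries and no control library, the strongest is chr33:30905737-30906559. Its levels were 1.93, 2.52 and 2.19 log2CPM in b1, b2 and b3 and 3.85 and 2.98 in b4 and b6, and its peaks had a fold enrichment of 5.98 in b4 and 4.49 in b6. The groups did not overlap, although b4 stood apart from b6. In CLBL-1 this region carried a peak in the control library c2 (fold enrichment 4.07) and in no C220 library. The second, chr17:400725-402635, had 2.08, 2.98 and 2.96 in the controls and 4.23 and 3.82 in b4 and b6, with fold enrichments of 4.24 and 4.09 and no peak in CLBL-1. Here the C220 libraries were close to each other and b1 was the lowest control.

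The next 5 of these regions had no peak outside b4 and b6. They are chr28:18829240-18830912 (difference 0.91), chr6:27609501-27610715 (1.02), chr11:11334691-11335379 (1.29), chr11:69857762-69858262 (1.11) and chr3:81357765-81358359 (1.31). The eighth, chr19:20921920-20922691 (1.05), carried a peak in every CLBL-1 library, with fold enrichments of 3.08 and 3.40 in c2 and c3 and 2.89, 3.12 and 3.64 in c4, c5 and c6. This region, without a call in untreated 17-71, was thus called in CLBL-1 with and without C220.

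At the other end, 41 regions (5.39%) carried a peak in all 10 libraries, against 18.7% of merged regions. The strongest of them is chr5:40772308-40773051, with 6.04, 6.67 and 6.68 log2CPM in b1, b2 and b3 and 7.85 and 7.25 in b4 and b6. Its fold enrichment was 9.70, 8.72 and 8.44 in the 17-71 controls and 10.5 and 9.52 in b4 and b6, so that by this measure b6 stood below b1. In CLBL-1 it was 9.10 and 8.46 in c2 and c3 and 9.42, 9.31 and 8.65 in c4, c5 and c6, where the groups overlapped. The others named by the same rule are chr22:61423871-61426975 (difference 0.89), chr11:124-4946 (0.88), chr13:21578920-21579516 (0.97) and chr3:31264041-31266057 (0.91). The region on chromosome 11 starts within the first kilobase of the chromosome and is also the third widest member.

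Fold enrichment gave a weaker order than the read levels at regions called throughout. At the 80 regions called throughout 17-71, the median fold enrichment was 4.18, 3.47 and 3.27 for b1, b2 and b3, while b4 and b6 gave 4.40 and 3.95. Both C220 folds exceeded all control folds at 29 of the 80 (36.2%), and at none were both below all controls. Over the 17618 merged regions of this kind, 4.09% had the first order and 17.3% the second. The fold is a second measure from the same contrast, so these values are a description too.

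Opening distal regions were narrow. Their median width was 678 bp, against 1012 bp over all merged regions, 1358 bp for the 556 distal regions with the opposite difference of -0.8 or lower (closing distal regions), and 786 bp for the 169 opening regions with a paired gene. The 424 regions called in 1 C220 library alone had a median of 539 bp and the 80 called in all 5 libraries 1174 bp. A further library widens a merged region if its peak reaches past the edge, so width and the number of calls can be linked. The size of this effect was not measured. The widest members are chr17:61218766-61225732 (6967 bp, difference 1.02), with a peak in all 5 libraries of 17-71 and in c5, and chr27:35420933-35427398 (6466 bp, difference 0.92), with shallow peaks in b3 and b4 only (fold enrichment 1.66 and 1.67).

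No CLBL-1 value entered the choice of regions, but the choice took in many regions of low level in 17-71, and level and CLBL-1 calls went together. Of the members below 2 log2CPM 4.92% had a CLBL-1 peak, from 2 to 3 log2CPM 13.9%, from 3 to 4 log2CPM 27% and at 4 or above 56.6%. The shares over all regions below are therefore not matched for level. A peak in at least 1 CLBL-1 library was found at 153 of the 760 regions (20.1%), against 44.8% of all merged 17-71 regions. The share was 52.3% for closing distal regions and 26.6% for opening regions with a paired gene. By library, peaks were called at 93 regions in c2 (12.2%), 96 in c3 (12.6%), 111 in c4 (14.6%), 120 in c5 (15.8%) and 80 in c6 (10.5%). The C220 libraries of CLBL-1 stood on both sides of its controls, in the order of the lengths of the peak lists except for c2 and c3. Over all merged regions the same libraries gave 35.8%, 35.1%, 38.9%, 39.0% and 34.7%.

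The share in CLBL-1 went with the number of 17-71 libraries that called a region. It was 8.80% of the 443 regions called in 1 library of 17-71, 20.8% of the 106 called in 2, 22% of the 59 called in 3, 33.8% of the 68 called in 4 and 70.0% of the 80 called in 5. For merged regions called in 1, 2, 3, 4 or 5 libraries it was 25.5%, 34.1%, 40.7%, 45.8% and 63.1%. Most merged regions called once were called in b1, the library with the longest list. For the patterns without a control peak the shares were closer: 8.64% of the members called in b4 alone and 12.2% of all merged regions called in b4 alone had a CLBL-1 peak, 7.84% and 11% for b6 alone, and 22.6% and 21% for b4 and b6. With control peaks the gap varied by pattern, from 4.55% of 22 members against 32.3% for b1 and b6, and 5.26% of 19 against 50.6% for b1, b3, b4 and b6, through 40% of 35 against 40.2% for b1, b2, b4 and b6, to a higher share in members, as in 63.6% of 11 against 57.4% for b2, b3, b4 and b6 and in the 80 called in all 5. Members are part of the merged regions in each pair, and the differences were not tested.

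**Figure D4:**
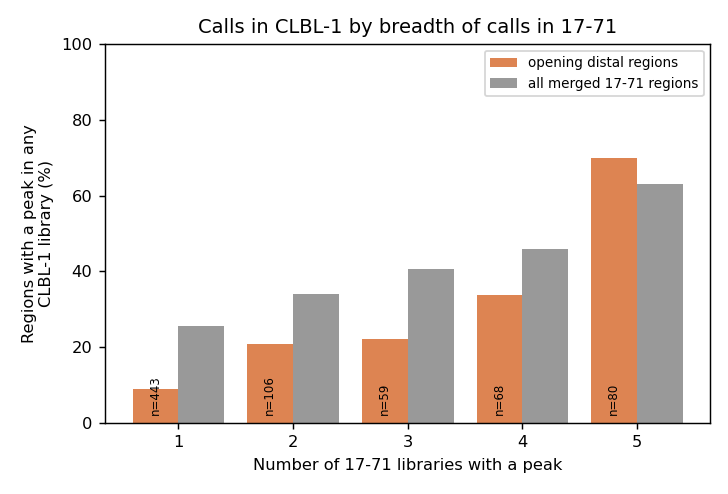
Share of regions with a peak in any CLBL-1 library in percent (vertical axis) by the number of 17-71 libraries with a peak (horizontal axis). Orange bars are opening distal regions, with their number written at the bar, and grey bars all merged 17-71 regions; the orange bars go from 8.80% at 1 library to 70.0% at 5.

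The calls in CLBL-1 rarely split by treatment, at the opening distal regions as over all merged regions. At 607 of the 760 (79.9%) no CLBL-1 library had a peak, so no split was possible there. Only 1 of the 760 regions (0.132%) was called in c4, c5 and c6 and in neither control, against a background of 0.647% of merged regions, and the reverse at 2 regions (0.263%) against 0.201%. The 1 region is chr17:63343969-63344748, with fold enrichments of 3.38, 2.51 and 3.36 in c4, c5 and c6 and, in 17-71, a peak in b6 only (2.21). The count of 1 was between 2 and 9 with 1 library left out, the highest being without c6. With 2 libraries against 3, an exact test of a single region cannot go below a p of 0.1.

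Where a peak was present in all 5 CLBL-1 libraries, fold enrichments were compared across all 14293 such regions. Of the 63 opening distal regions with a peak in all 5, the 61 identical to a merged region were among them. None was higher in C220 at an adjusted p of 0.05 in limma, and none lower, against a background of 0.007% higher (1 region, not among the 61) and 0% lower. At an unadjusted p below 0.05 there were 7 of the 61, 6 of them higher, against 5.64% of all regions (806, not split by direction here). This count depended on single libraries. It was 3 without c5, 1 of them higher, and 11 without c6, 7 of them higher. Without c4 it was 7, with 6 higher. The median log2 fold change from control to C220 was 0.02 over the 61, from -0.33 to 0.31, with a median standard error of 0.10, and 32 were above 0. The smallest p belonged to chr4:53677530-53677987, with a log2 fold change of 0.26 (SE 0.09, limma adjusted p = 0.86); over the alternatives the smallest adjusted p of a member lay between 0.665 and 0.9998. None of the 61 reached 0.8 on this log2 scale, which is not the log2CPM scale of the threshold in 17-71.

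The regions were spread over the 38 autosomes and X but not in proportion to all regions. Chromosome 27 held 58 of the 760 (7.63%) against 3.11% of merged regions, chromosome 31 held 30 (3.95% against 1.65%) and chromosome 13 held 33 (4.34% against 2.95%). These 3 were singled out after their values were seen, and chromosome 13 was not among the most uneven: its share was 1.47 times that of merged regions, below chromosomes 34 (1.84), 16 (1.61), 26 (1.55) and 3 (1.52). For chromosomes 27 and 31 it was 2.45 and 2.39 times. The closing distal regions numbered 27 on chromosome 27 (4.86%), 1 on chromosome 31 and 5 on chromosome 13, and the 169 opening regions with a paired gene 16, 5 and 9. Chromosome 27 thus held more than its share of merged regions in all 3 sets. Chromosome 1 had the opposite order, with 22 opening and 48 closing distal regions (2.89% and 8.63%, against 5.80% of merged regions).

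**Figure D5:**
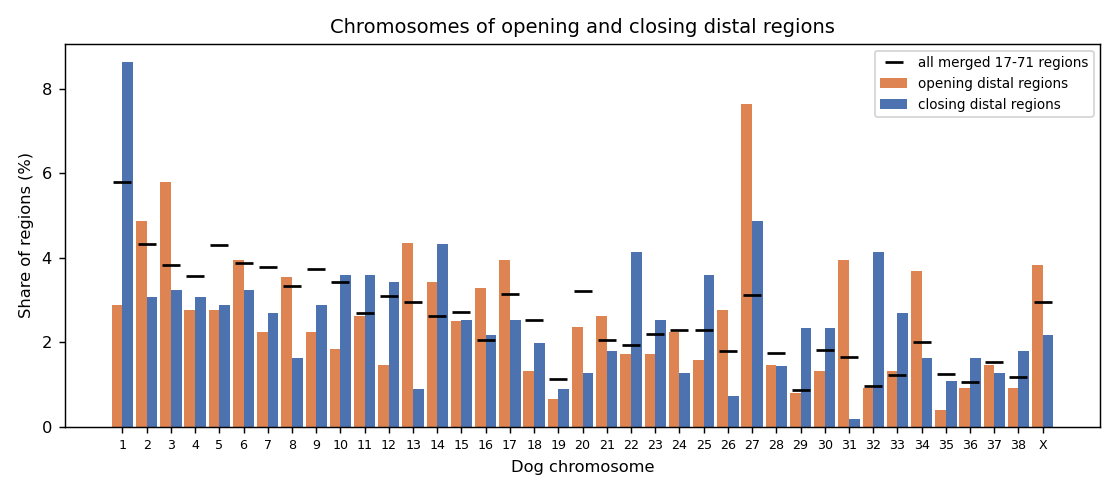
Share of regions in percent (vertical axis) on each dog chromosome (horizontal axis) for the 760 opening (orange) and 556 closing (blue) distal regions, with black marks for all merged 17-71 regions. Opening regions stand highest on chromosome 27 (7.63%), and chromosome 31 shows 3.95% of the opening against 0.18% of the closing regions.

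The share of all peaks on these chromosomes differed in the same direction between the 17-71 groups. Chromosome 27 held 2.97%, 3.16% and 3.23% of the peaks of b1, b2 and b3 and 3.65% and 3.43% of those of b4 and b6. Chromosome 31 held 1.53%, 1.60% and 1.57% against 1.69% and 1.68%, and chromosome 13 held 2.83%, 2.99% and 2.98% against 3.16% and 3.18%. The groups did not overlap on any of the 3, but neither did they on 43.6% of all 39 chromosomes (C220 higher on 7 and lower on 10), so the order alone does not set the 3 apart. Among the 20000 peaks of largest −log10 p the groups did not overlap on 38.5% of chromosomes, the 3 included, with 3.42%, 3.38% and 3.44% against 3.55% and 3.53% on chromosome 27. The part of this in the number of opening regions was not tested.

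As a set, the members on chromosome 27 differed from those outside chromosomes 27, 31 and 13. Scaled to 1 kb of region, their median level was 3.56, 4.38 and 4.16 log2CPM in b1, b2 and b3 and 5.30 and 4.77 in b4 and b6, while for the 639 members outside these 3 chromosomes it was 2.29, 2.76 and 2.57 against 3.79 and 3.65. Their called peaks were shallower, with a median fold enrichment of 2.33 in b4 and 2.15 in b6 against 3.53 and 3.23. Some members elsewhere had calls about as shallow, such as chr14:43399884-43400679 (2.26 in b4) and chr14:43376242-43377195 (2.19 in b6). Of the 47 members on chromosome 27 with a mean of 3 log2CPM or higher, 11 were called in b4 and in b6 (23.4%), while 152 of 206 members outside the 3 chromosomes were (73.8%). Only 2 of the 58 had a peak in CLBL-1 (3.45%), where 38.3% of all merged regions of chromosome 27 did. Their median difference was 0.94, and among the 530 members with a difference of 1 or higher the chromosome held 18 (3.40%), close to its share of merged regions. On chromosomes 31 and 13 the share among those 530 was 4.72% and 4.53%.

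Chromosome 27 also held the densest groups. The window of 500 kb with most members held 8, and this number was reached from 16245039, 38806854 and 39231179, all on chromosome 27; the last 2 windows overlap. A stretch chosen after the values were seen, which ends at 40000000 and whose first member starts at 38806854, held 16 members among 76 merged regions, and no closing distal region. Their differences ran from 0.81 to 1.23 with a median of 0.93, and at all 16 both C220 values exceeded every control, as at 98.6% of all members. The median levels were 3.47, 4.32 and 4.27 log2CPM for b1, b2 and b3, and 5.19 and 4.77 for b4 and b6. Peaks were called at 10 of the 16 in b4 and 7 in b6, against 3, 3 and 2 in b1, b2 and b3, and at none in CLBL-1, where 4 of the 76 merged regions of this stretch had a peak. Both b4 and b6 had a call at 4 of the 16. The stretch was picked for its opening regions, so its differences are a description.

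Some genes of that stretch are named by neighbouring rows of the count table that do carry a gene. Its other genes are not known here, since no annotation was used. A row upstream of VWF, which encodes the clotting protein von Willebrand factor, lies at 38833386 to 38834649 and had a difference of 0.87. The members nearest to it are 24.3 kb (chr27:38806854-38809072, 0.82), 10.1 kb (chr27:38844792-38845580, 1.23) and 22.4 kb away (chr27:38857065-38857992, 1.03). The one with the largest difference, 10.1 kb away, had 2.90, 3.73 and 3.87 log2CPM in b1, b2 and b3 and 5.05 and 4.40 in b4 and b6, with a peak in b4 only. A row inside NTF3, which encodes the nerve growth factor neurotrophin-3, lies 20.6 and 36.4 kb from 2 members (1.02 and 0.94) and had a difference of 0.81. A row upstream of KCNA1, which encodes a voltage-gated potassium channel, had 1.11 and lies 16.0 kb from the member chr27:39956465-39957768 (0.84). The 3 gene rows come from the same first rows of the same contrast, so nothing is read from their direction.

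Few members had a gene row in reach. With those of this stretch included, a row with a paired gene lay within 50 kb of 31 members, naming 23 different genes. At 23 of the 31 that row was itself higher by 0.8 or more and at 3 lower by as much. Of all 515 rows with a paired gene, 32.8% were higher and 51.8% lower by as much. The 31 are members, and several share a gene row, so a row can count more than once, unlike among the 515. Rows beyond those used were not searched, so other genes may lie nearer. On chromosome 14, members at 43399884 (1.21) and 43376242 (0.91) lie 7.01 and 30.5 kb from a row inside CRHR2, a receptor of the corticotropin-releasing hormone family (0.73), and a member at 44211299 (1.16) lies 9.18 kb from a row inside PPP1R17, a regulatory subunit of a protein phosphatase (0.93). The rows lower by 0.8 or more were those upstream of AANAT, an enzyme of melatonin synthesis (-0.86, 20.3 kb from chr9:4394660-4396290 with 1.55), upstream of SLC36A3, an amino acid transporter (-1.16, 32.2 kb away), and inside ARL1, a small GTPase of the Golgi (-0.92, 29.4 kb away).

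Another member lay within 50 kb of 119 of the 760 (15.7%), a closing distal region within 50 kb of 1 member, and an opening region with a paired gene within 50 kb of 23 (3.03%). For the 556 closing distal regions, 130 (23.4%) had another closing region within 50 kb. These counts come from regions of which only the first rows of the table were used, and they were not tested.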

How the data were processed

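Reads were mapped by the authors with Bowtie2 2.2.4 to the build CanFam3.1, and broad peaks were called by library, without pooling, in MACS2 (version not given in the sources used here) with a −log10 p of at least 5. Each deposited peak carries a fold enrichment, the ratio of its pileup to the local background, with its −log10 p-value and −log10 q-value, and none is scaled between libraries. The q-values and a score column were not used. A count table accompanies the study; its log2CPM values chose the regions and are printed as a description. Its fold changes, p-values and marks were not used, nor was 1 column of counts (b5) of a library not analysed here. The members and lists were chosen with earlier results of these data known.

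Peaks of the 5 libraries of 17-71 were joined into one region if they overlapped or abutted, and a region counts as called with an overlap of 1 bp. Coordinates are 1-based. The largest fold enrichment per region was log2 transformed without a pseudocount, centred on each library's median and compared in CLBL-1 with limma 3.58.1 in R 4.3.3, with Benjamini-Hochberg adjustment over 14293 regions and a threshold of 0.05. All other values are descriptions. Regions were named by rule: largest differences, strongest calls in both C220 libraries only, calls in CLBL-1 C220 libraries only, calls in all 10 libraries, nearest the threshold, widest, and densest window of 500 kb. Merging and the limma fit were tested on simulated data. Planned GC content, motif, nearest gene, gene list and cell marker checks were not run, since no genome of the build was used. Python 3.11.15, numpy 2.4.6 and pandas 2.3.3 were used.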

Additional observations from a re-analysis of the deposited data

Results flagged for a closer look

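The share of a library's peaks on chromosome 27 moved in opposite directions in the 2 lines, each C220 library lying on one side of each control library. It differed by 0.417 percentage points (C220 minus control) in 17-71 and by -0.0523 in CLBL-1, where the shares were 2.43% and 2.48% in c2 and c3 and 2.42%, 2.41% and 2.38% in c4, c5 and c6. The same held for chromosome 13, with 0.233 percentage points in 17-71 and -0.106 in CLBL-1, where the shares were 2.64% in both controls and 2.48%, 2.57% and 2.55% in the C220 libraries. With the 20000 peaks of largest −log10 p per library the CLBL-1 groups overlapped on both, since c6 (2.40%) was above c2 (2.39%) on chromosome 27 and c6 (2.63%) above c3 (2.62%) on chromosome 13. Over all 39 chromosomes, 5 had such an opposite order with all peaks and 4 others with the 20000 peaks. Chromosome 31 was among these 4, with 1.49%, 1.56% and 1.45% in the 17-71 controls against 1.67% and 1.70% with C220, and 1.14% in both CLBL-1 controls against 1.12%, 1.09% and 1.09%. The difference between the lines was not tested, and both chromosomes were singled out after their number of opening regions had been seen.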

How the results depend on the processing

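The number of opening distal regions was 530 with a threshold of 1 and 737 from the ratio of mean CPM, and between 555 (without b1) and 788 (without b2) with 1 library left out. The count called in both C220 libraries and no control library of 17-71 (53) was 5 with peaks of a −log10 p of 10 or higher, and between 56 and 273 without 1 library, the high values being those without b4 (257) or b6 (273), where 1 C220 library decides. The count with a peak in any CLBL-1 library (153) was 74 with peaks of a −log10 p of 10 or higher and 72 among the 530 members with a difference of 1 or higher (13.6%, a subset chosen after seeing the data), and between 136 and 152 without 1 library. The single region called in every CLBL-1 C220 and no control library became 4 with the same minimum on −log10 p, 2 with 20000 peaks per library, 2 with an overlap of at least 50% of the region, 0 at a difference of 1 or higher, and between 2 and 9 without 1 library. Members within reach of another (119 at 50 kb) numbered 39 at 10 kb and 210 at 200 kb. On chromosome 27 there were 18 members with a difference of 1 or higher and 12 with a peak in both C220 libraries, of 58. The limma count of members in CLBL-1 was 0 in every alternative run, and over all regions it was 0 or 1; without c2 or c3 the lone control was assumed to vary like the C220 libraries. The alternatives on GC content and motifs were not run, since no genome of the build was used. The causes were not tested, and the counts with fewer peaks or libraries are recounts only. No paired analysis was possible because the groups of a line share fewer than 2 replicate numbers. Depth limits all calls, since the lists carry none; the region table was used only in its first 1999 rows, so members of smaller rank in its own test are missing.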
